A study of Mus musculus with 4 samples.

Results

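The naive pluripotency transcription factors examined here were 10 genes, Klf2, Klf4, Klf5, Tbx3, Tfcp2l1, Esrrb, Zfp42, Nr5a2, Prdm14 and Gbx2. They were chosen by name as factors held by 2i and LIF, and each was read from the probe set whose platform annotation gave its symbol alone. Each of the 10 had 1 such probe set, among 19938 measured genes. RNA was measured on 4 arrays of E14 cells, a mouse embryonic stem cell line. In 2 arrays the cells carried a lentiviral shRNA against Usp22 (Usp22 depletion), and in 2 they carried the lentiviral control shRNA, named Luc. All cells of both groups grew without feeders on gelatin in 20% FBS with LIF and 2i, a pair of kinase inhibitors. These were 1 µM PD0325901, which blocks MEK, and 3 µM CH99021, which blocks GSK3. The series is therefore 1 cell line in 1 medium with a partial reduction of Usp22, and the labels do not say how many shRNA sequences or separate cultures were used. The p-values then measure only a spread between these arrays that is pooled over genes and may be technical.

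Naive pluripotency is the state of the early epiblast before implantation, and 2i with LIF holds it in culture. LIF signals through Jak kinases to the transcription factor Stat3, which activates Klf4, Tfcp2l1 and Gbx2. Inhibition of GSK3 relieves repression of Esrrb by Tcf7l1, and inhibition of MEK removes the ERK signal that favours differentiation. The factors support one another, so that the loss of a single member can often be tolerated in 2i and LIF. Usp22 removes ubiquitin from histones as part of SAGA, a coactivator complex at active promoters, and the comparison asks how these factors stood when it was reduced.

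Usp22 itself, the check of the labels, averaged 8.26 ± 0.044 on the log2 scale in depleted cells and 9.38 ± 0.039 in control cells (SD, n = 2 each), and it fell (log2 fold change −1.12, limma adjusted p = 0.00826). All 10 factors were at or above 6.99, the level under which 95% of the 1190 olfactory and vomeronasal receptor genes lay by mean signal, and which is used here as the background of the array. For Gbx2 the mean over the arrays lay at that level. The core pluripotency genes Pou5f1 (Oct4), Sox2 and Nanog lay 3.61, 2.51 and 4.23 above it. The share of all genes above it was 48.9%. Of the marker genes of other cell types, 5 of 11 for trophectoderm, 5 of 10 for primitive endoderm, 5 of 9 for mesoderm and primitive streak, 2 of 7 for neuroectoderm and 4 of 8 for fibroblasts were above it. Their summed linear signals were 1997 and 2005 in depleted cells and 2307 and 2250 in control cells for trophectoderm, and 1313 and 1320 against 1219 and 1450 for primitive endoderm. For mesoderm and primitive streak they were 1527 and 1491 against 1704 and 2126, for neuroectoderm 713 and 766 against 830 and 1072, and for fibroblasts 1040 and 1085 against 1084 and 1366. Only 3 of 9 listed markers of cells like the early cleavage embryo were measured, and they summed to 1115 and 1102 against 967 and 875. By log2 fold change, Tcstv3 stood at 0.57, Eif1a at 0.27 and Zfp352 at −0.30, with Zfp352 under the background by its mean. While the trophectoderm sum was lower in depleted cells, 2 of its 11 markers rose, beside 2.62% of all genes. These 2 were Fgfr2 (1.22, limma adjusted p = 0.00343) and Plet1 (1.08, limma adjusted p = 0.0117). Both lay under the background by their means, and without control replicate 2 neither passed (limma adjusted p = 0.0744 and 0.0678). Their part in the results was not tested. In RNA of whole cultures, fewer cells that express a gene and less RNA per cell cannot be told apart.

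RefSeq promoter windows (build GRCm38.p6, 250 bases before to 50 bases after a start site) were at hand for 7 of the 10 genes, in 9 windows; Klf5, Tbx3 and Prdm14 had none. The windows of Klf4 and Tfcp2l1 and 1 of the 2 of Esrrb, members that stood lower together in depleted cells, and that of Zfp42, whose signal differed least, are printed 5′ to 3′ on the strand of the gene. Capitals mark matches, on either strand, to TTCNNNGAA (bound by STAT factors), AAGGTCA (Esrrb and Nr5a2), CCACCC (Klf factors), AGGTGTGA (T-box factors) or CTTTGAA (Tcf factors).

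Klf4, chr4:55532426-55532725, minus strand: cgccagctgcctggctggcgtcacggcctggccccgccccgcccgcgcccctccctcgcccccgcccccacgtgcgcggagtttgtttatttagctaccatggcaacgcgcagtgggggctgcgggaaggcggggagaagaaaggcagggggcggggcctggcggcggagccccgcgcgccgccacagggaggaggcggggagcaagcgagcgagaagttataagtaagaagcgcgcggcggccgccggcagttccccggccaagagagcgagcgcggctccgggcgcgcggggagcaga

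Tfcp2l1, chr1:118627695-118627994, plus strand: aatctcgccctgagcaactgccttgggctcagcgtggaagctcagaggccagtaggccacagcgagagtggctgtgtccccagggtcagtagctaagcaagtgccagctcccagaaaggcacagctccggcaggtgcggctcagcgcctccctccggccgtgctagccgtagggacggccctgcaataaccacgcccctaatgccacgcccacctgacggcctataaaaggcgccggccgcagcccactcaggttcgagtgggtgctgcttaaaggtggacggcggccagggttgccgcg

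Esrrb, chr12:86360867-86361166, plus strand: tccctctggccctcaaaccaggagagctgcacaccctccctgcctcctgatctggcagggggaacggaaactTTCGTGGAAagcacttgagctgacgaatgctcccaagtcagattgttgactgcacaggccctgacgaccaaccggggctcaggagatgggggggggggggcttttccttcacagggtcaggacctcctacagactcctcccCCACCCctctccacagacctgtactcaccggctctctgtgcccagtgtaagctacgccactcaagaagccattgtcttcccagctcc

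Zfp42, chr8:43306960-43307259, minus strand: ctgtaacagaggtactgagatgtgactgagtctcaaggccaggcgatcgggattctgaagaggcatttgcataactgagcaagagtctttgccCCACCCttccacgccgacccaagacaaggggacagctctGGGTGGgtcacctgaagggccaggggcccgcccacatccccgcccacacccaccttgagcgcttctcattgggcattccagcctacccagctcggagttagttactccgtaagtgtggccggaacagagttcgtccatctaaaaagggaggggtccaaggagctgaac

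The Klf4 and Tfcp2l1 windows held none of the 5 letter patterns, and their G and C content was 74.3% and 65.3%. The printed Esrrb window, the first of 2 in the RefSeq table, held a TTCNNNGAA match that starts 178 bases before the start site and a CCACCC match that starts 37 bases before it. The other Esrrb window held a CCACCC match 103 bases before its start site and no TTCNNNGAA. TTCNNNGAA was found in 8.3% and CCACCC in 31.5% of 32851 RefSeq windows of this length. The Zfp42 window held 2 CCACCC matches, 157 and 118 bases before the start site. AAGGTCA, AGGTGTGA and CTTTGAA occurred in 4.72%, 1.28% and 5.14% of all windows and in none of the 9. A match is a description of letters only, and none of these data measured binding.

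After Usp22 depletion the 10 factors did not all differ in the same direction, and their split was near that of all genes. By their group means 4 were higher and 6 lower in depleted cells, beside 42.6% of all genes with a higher and 57.4% with a lower mean. None passed the test over all genes (limma, Benjamini-Hochberg adjusted p under 0.05): 0 of 10 were called higher, where 2.62% of all genes were, and 0 of 10 lower, where 0.105% were. At an unadjusted p under 0.05, 1 member was higher and 3 were lower, beside 15.4% and 6.63% of all genes. The members ran from −0.67 for Tbx3 to 0.55 for Klf5 in log2 fold change, with a median of −0.20 beside −0.12 over all genes. In this fit every gene had the same standard error, 0.27 on the log2 scale, and the smallest change called for any gene was 0.86. For 9 of the 10 members both depleted arrays lay beyond both control arrays, 4 above and 5 below, although by 0.03 or less for Klf2, Nr5a2 and Zfp42. The corresponding shares of all genes were 27.4% and 33.3%. Of the 9753 genes above the receptor background, 7268 had groups without overlap in either direction.

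**Figure D1:**
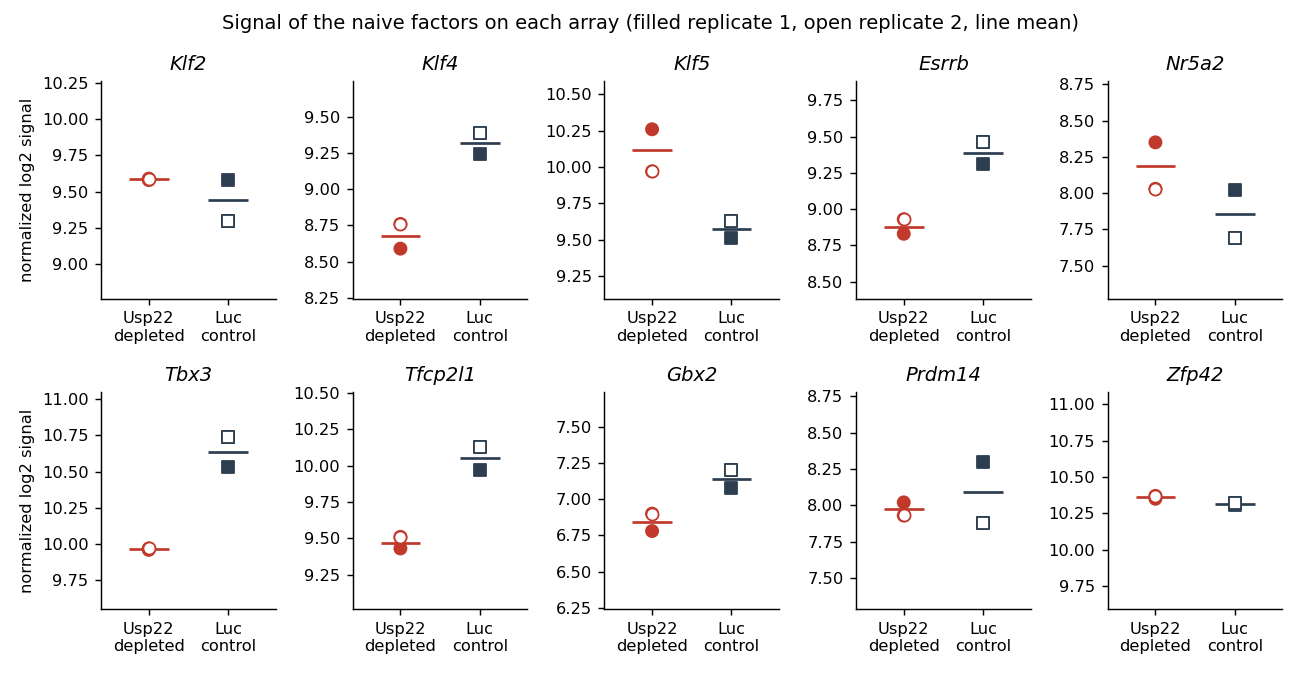
Normalized log2 signal of each factor on each array, in Usp22 depleted cells (left, red) and Luc control cells (right, dark); filled symbols are replicate 1, open symbols replicate 2, and lines the group means. Every panel spans the same height on the log2 scale around its own gene. Klf4, Esrrb, Tbx3, Tfcp2l1 and Gbx2 lie lower on both depleted arrays, Klf5 lies higher on both, and the groups of Prdm14 overlap.

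Among the Krüppel-like factors, zinc finger proteins that can partly replace one another in stem cells, Klf4 and Klf5 stood on opposite sides. Klf4, a target of Stat3, had a log2 signal of 8.59 and 8.76 on the depleted arrays, against 9.24 and 9.39 on the control arrays. Both depleted arrays were lower, and the gap between the groups, 0.48, exceeded the difference within either group. The log2 fold change was −0.64 (1.56-fold lower, limma adjusted p = 0.151, 95% interval −1.17 to −0.12). Klf5, which acts in the early embryo to keep endoderm fate at bay, read 10.26 and 9.97 in depleted cells and 9.51 and 9.63 in control cells. Both depleted arrays were higher, with a gap of 0.34 and a difference of 0.30 between the depleted arrays themselves. Its log2 fold change was 0.55 (1.46-fold higher, limma adjusted p = 0.211, 95% interval 0.02 to 1.07). Klf2, the Klf factor that ERK signalling destabilises as a protein, read 9.58 and 9.59 in depleted cells, against 9.58 and 9.30 in control cells. Both depleted arrays lay together at the level of control replicate 1, so that its log2 fold change of 0.15 (limma adjusted p = 0.706, 95% interval −0.38 to 0.67) came from control replicate 2 and was 0.01 without that array.

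The opposite positions of Klf5 and Klf4 can be read within each array, where scaling between arrays has little effect. Klf5 minus Klf4 was 1.67 and 1.21 on the log2 scale in depleted cells, against 0.27 and 0.24 in control cells. The difference between the groups was 1.19, and 1.18 on the deposited values without normalization. An exact permutation test of this difference, two-sided, gave p = 0.333, the smallest that 2 arrays against 2 allow, and the pair was chosen after its values were seen. A ratio of this kind describes how the 2 genes stood to each other on these 4 arrays. With that p it does not show that they changed unequally, nor which one changed.

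Among the nuclear receptors, Esrrb was lower and Nr5a2 higher by the group means. Esrrb, an orphan receptor that stands in for Nanog in several assays, read 8.83 and 8.93 in depleted cells and 9.31 and 9.46 in control cells. Both depleted arrays were lower by more than the arrays of either group differed, at a log2 fold change of −0.50 (1.42-fold, limma adjusted p = 0.241, 95% interval −1.03 to 0.02). Nr5a2, an orphan receptor that can activate Pou5f1, read 8.35 and 8.03 in depleted cells, against 8.02 and 7.69 in control cells. Depleted replicate 2 and control replicate 1 differed by only 0.01, while the 2 arrays of each group differed by 0.32, so the groups barely separated. Its log2 fold change was 0.33 (limma adjusted p = 0.400, 95% interval −0.19 to 0.86), and 0.17 without either depleted replicate 1 or control replicate 2.

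Tbx3 and Tfcp2l1 were also lower by their group means in depleted cells. Tbx3, a T-box factor that can sustain self-renewal and is also active in endoderm, read 9.96 and 9.97 in depleted cells and 10.53 and 10.74 in control cells. On the deposited linear scale these were intensities of 1015 and 1034, against 1467 and 1582. The depleted arrays nearly coincided, and the gap to the controls was 0.57. Its log2 fold change of −0.67 (1.59-fold lower, limma adjusted p = 0.131, 95% interval −1.20 to −0.15) was the largest in size among the 10. Tfcp2l1, a Grainyhead-like factor downstream of Stat3, read 9.43 and 9.51 in depleted cells, against 9.97 and 10.13 in control cells, with deposited intensities of 702.3 and 753.9 against 1018 and 1059. Its gap was 0.46 and its log2 fold change −0.58 (1.5-fold lower, limma adjusted p = 0.187, 95% interval −1.11 to −0.06). Gbx2, a homeobox factor downstream of Stat3, read 6.78 and 6.90 in depleted cells and 7.08 and 7.20 in control cells. The groups did not overlap (log2 fold change −0.29, limma adjusted p = 0.453, 95% interval −0.82 to 0.23), but the depleted arrays lay under the receptor background and the control arrays just above it.

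Prdm14 and Zfp42 gave no clear difference. Prdm14, a regulator that restrains FGF receptor signalling and DNA methyltransferase genes, read 8.02 and 7.93 in depleted cells, against 8.30 and 7.88 in control cells. Both depleted arrays lay between the 2 controls, and the log2 fold change was −0.11 (limma adjusted p = 0.771, 95% interval −0.64 to 0.41). It was 0.10 without control replicate 1 and 0.05 with each array centred on its median. Zfp42 (Rex1), a zinc finger factor used as a reporter of the naive state, read 10.35 and 10.37 in depleted cells and 10.31 and 10.32 in control cells. The arrays of each group differed by 0.02 and 0.01, and the log2 fold change was 0.04 (limma adjusted p = 0.909, 95% interval −0.48 to 0.57). With each array centred on its median it was 0.26, so the near equality of Zfp42 depends on the scaling. Within arrays, Zfp42 minus Tbx3 was 0.39 and 0.40 in depleted cells, against −0.22 and −0.42 in control cells (exact permutation p = 0.333, chosen after its values were seen).

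**Figure D2:**
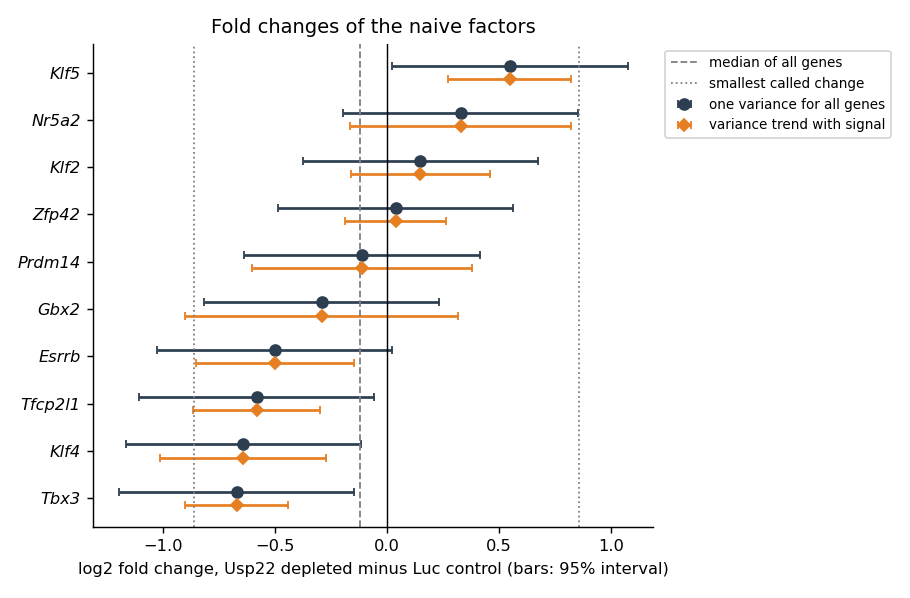
Log2 fold change of each factor (Usp22 depleted minus Luc control) with 95% intervals from limma with a single variance for all genes (circles) and with a variance that follows signal (diamonds). The dashed line is the median of all genes, −0.12, and the dotted lines the smallest called change, 0.86. No circle reaches the dotted lines, and the diamonds' intervals are narrow for Tbx3 (−0.67) and Tfcp2l1 (−0.58) and wide for Gbx2 (−0.29).

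The calls depended on how the variance was modelled. The brightest of 5 equal classes of mean signal, which held 7 of the 10 members, varied least between arrays. The median difference between the depleted arrays was 0.276, 0.217, 0.181, 0.147 and 0.119 from the dimmest class to the brightest. Between the control arrays it was 0.371, 0.408, 0.436, 0.422 and 0.211, so that it was smaller in the brightest class alone. When the prior variance was allowed to follow signal (limma's intensity trend), 3 members fell and 1 rose, where 1.43% of all genes were called lower and 1.64% higher. Tbx3 (limma trend adjusted p = 1.04e-05, standard error 0.117), Tfcp2l1 (0.00767, 0.144) and Klf4 (0.0336, 0.189) fell, and Klf5 rose (0.0105, 0.14). All of these were in the brightest class, and the share of genes called within that class was not computed. The standard error of Zfp42 was 0.115, close to that of Tbx3, although their SDs in control cells were 0.0056 and 0.15. Esrrb did not pass (limma trend adjusted p = 0.0808), and neither did Nr5a2 (0.391), Gbx2 (0.542), Klf2 (0.549), Prdm14 (0.768) or Zfp42 (0.798). With robust settings added, 3 members were again lower and 1 higher, beside 1.70% and 1.91% of all genes. With genes under the receptor background left out and a single variance, Tbx3 alone passed (limma adjusted p = 0.0497), so that 1 member was lower and 0 higher, beside 1.53% and 6.91% of the 9753 genes.

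The scaling between arrays also moved these calls. The median of all genes was −0.12 after quantile normalization, −0.24 on the deposited log2 values and −0.09 with each array centred on its median. Relative to the median of all genes after quantile normalization, Tbx3 stood at −0.56, Klf4 at −0.52, Tfcp2l1 at −0.46, Esrrb at −0.38 and Gbx2 at −0.17, while Klf5 stood at 0.67, Nr5a2 at 0.45 and Klf2 at 0.26. With arrays centred on their medians, Tbx3, Klf4, Tfcp2l1 and Esrrb had log2 fold changes of −0.43, −0.42, −0.37 and −0.28, and Klf5 one of 0.76 (limma adjusted p = 0.0681). With the trend on that scaling only Klf5 passed (limma trend adjusted p = 0.0157), which makes 1 member higher and 0 lower beside 3.86% and 0.0652% of all genes. With the trend on the deposited log2 values Klf5 (0.62, limma trend adjusted p = 0.0346) and Tbx3 (−0.57, limma trend adjusted p = 0.0291) passed, or 1 member in each direction beside 0.572% higher and 0.166% lower. Klf5 was thus called higher on all 3 scalings with the trend, Tbx3 lower on 2 of them, and Klf4 and Tfcp2l1 on quantile-normalized values alone. These combinations of trend and scaling were added after the data were seen.

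Single arrays moved the calls further. Without control replicate 1 and with a single variance, Tbx3, Klf4, Tfcp2l1 and Esrrb passed (limma adjusted p = 0.00705, 0.0122, 0.0183 and 0.0360), or 4 members lower and 0 higher, but so did 21.2% of all genes in the lower and 24.5% in the higher direction. With the trend, leaving out control replicate 1 gave 4 members lower and 2 higher (20.8% and 27.9% of all genes), and leaving out control replicate 2 gave 3 and 1 (2.56% and 3.66%). Leaving out depleted replicate 1 gave 1 and 0 (0.0903% and 0.0301%), and leaving out depleted replicate 2 gave 1 and 0 (0.527% and 0.1%). Tbx3 was called in all 4 of these fits (limma trend adjusted p from 1.76e-06 to 0.00533), while Klf5 was not called without depleted replicate 1 (0.938) or depleted replicate 2 (0.0979).

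**Figure D3:**
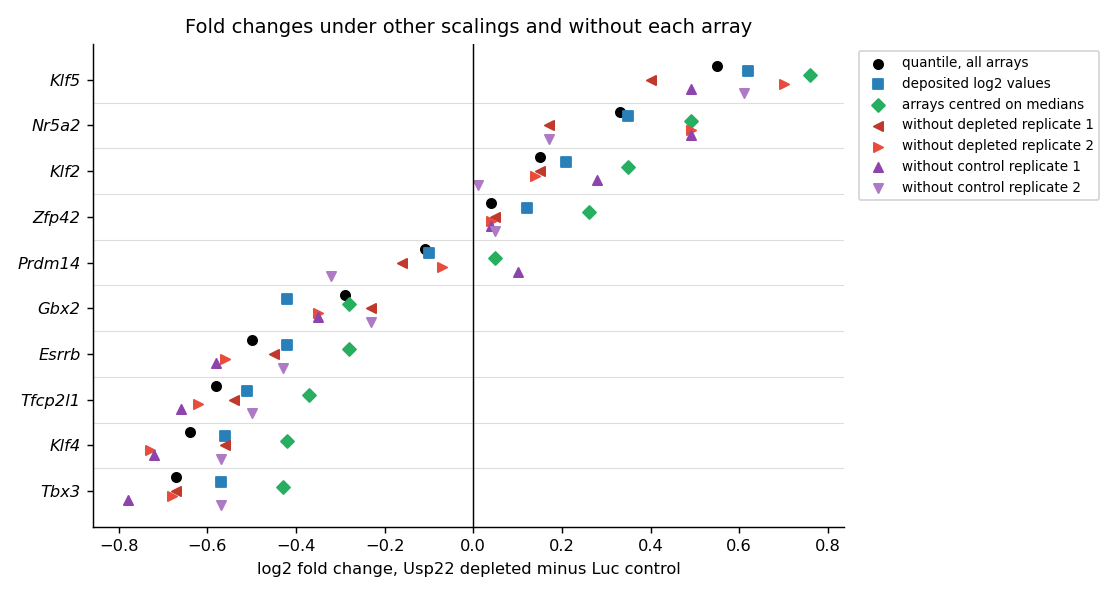
Log2 fold change of each factor (Usp22 depleted minus Luc control) under quantile normalization, the deposited log2 values, arrays centred on their medians, and without each array. All values of Klf5, Nr5a2, Klf2 and Zfp42 lie above 0 and all of Tbx3, Klf4, Tfcp2l1, Esrrb and Gbx2 below, while Prdm14 runs from −0.32 to 0.10.

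The members' fold changes were read against those of all genes, whose distribution was double-peaked. Of the 9753 genes above the receptor background, 17.3% had a log2 fold change within 0.2 of 0, 42.7% lay below −0.2 (median −0.43) and 39.9% above 0.2 (median 0.47). In the brightest class, Esrrb was at the 12.1 percentile of log2 fold change, Klf2 at 55.6 and Zfp42 at 48.9. Tbx3 was at the 1.93, Klf4 at the 2.58, Tfcp2l1 at the 5.54 and Klf5 at the 93.7 percentile of that class. Nr5a2 and Prdm14, in the next class, were at 63.4 and 49.0, and Gbx2, in the middle class, at 36.2. The median of the brightest class was 0.06.

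**Figure D4:**
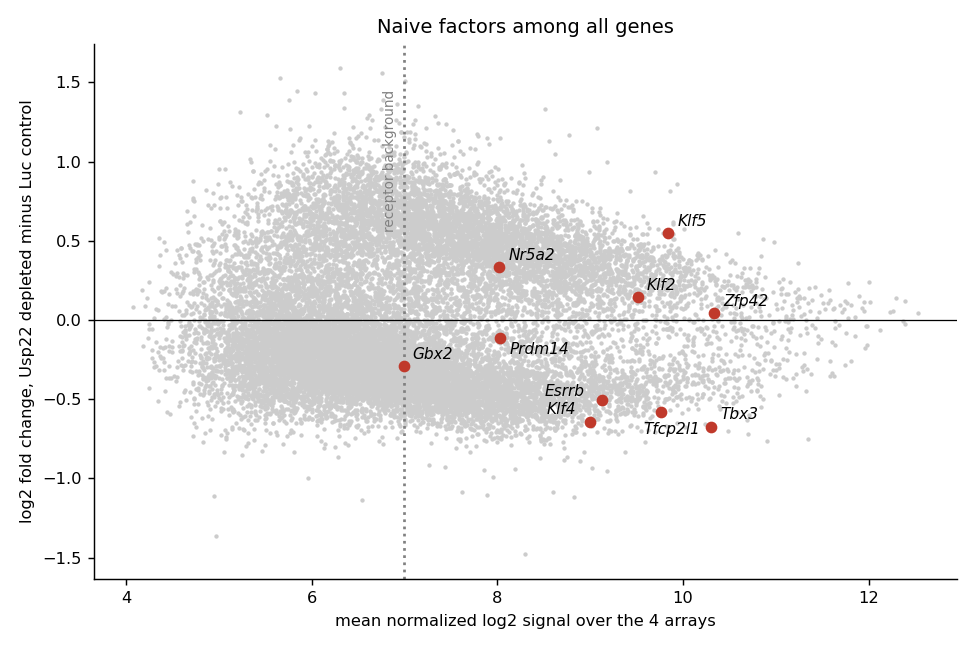
Log2 fold change (Usp22 depleted minus Luc control) against mean normalized log2 signal for 19938 genes (grey) with the 10 factors in red; the dotted line is the receptor background, 6.99. Grey points form an upper and a lower band, and Tbx3, Klf4 and Tfcp2l1 lie low in the lower band (1.93 to 5.54 percentile of the brightest class), while Klf5 lies in the upper band at the 93.7 percentile of that class.

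Control replicate 2 stood apart from the other arrays. Its correlation with control replicate 1 across genes was 0.941, and the depleted arrays correlated at 0.951 and 0.974 with control replicate 1 and at 0.877 and 0.908 with control replicate 2. For 83.2% of the 12095 genes whose groups did not overlap, control replicate 1 was the control nearer to the depleted arrays, and so it was for 7 of 9 members. Klf5 and Zfp42 were the exceptions, with control replicate 2 nearer to the depleted mean. Without control replicate 2, Tbx3, Klf4, Tfcp2l1 and Esrrb had log2 fold changes of −0.57, −0.57, −0.50 and −0.43, and Klf5 one of 0.61. The part of this array in the results beyond these values was not tested.

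Tfcp2l1, Klf4 and Esrrb were the members whose course over the 4 arrays lay nearest to that of Tbx3, although genes outside the members lay nearer still. By Euclidean distance between gene-centred log2 profiles, Tfcp2l1 ranked 47, Klf4 ranked 76 and Esrrb ranked 298 among 9752 genes ordered from nearest to Tbx3, at distances of 0.11, 0.13 and 0.19. Klf5 ranked 7816, at 1.2. The 5 nearest genes were the protease gene Capn1, the GABA receptor gene Gabbr1, Sipa1l3, Kri1 and Secisbp2l, at distances from 0.040 to 0.059, with log2 fold changes of −0.71, −0.69, −0.66, −0.64 and −0.67. These distances rest on 4 arrays and describe likeness of pattern only.

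Relatives of the members were also mixed. Of 14 other Klf genes, 1 rose and 0 fell, where 2.62% and 0.105% of all genes did. The median of the 14 was −0.01. Klf8, which encodes a Klf protein known as a repressor, rose by 1.06 on the log2 scale (limma adjusted p = 0.0141), at 7.65 and 7.43 in depleted cells against 6.61 and 6.36 in control cells. Both control arrays were under the receptor background, and Klf8 was not called without control replicate 2 (0.93, limma adjusted p = 0.0528) or on the deposited log2 values (limma adjusted p = 0.0754). With the trend, which called 1.43% of all genes lower, Klf14 (−0.68, limma trend adjusted p = 0.0316) and Klf16 (−0.69, 0.0105) fell. Klf16 stood at −0.36 without control replicate 2. Of 16 measured paralogs of the remaining members, 1 rose and 0 fell, with a median of −0.39. Of the 16, 12 had negative values, beside 57.4% of all genes. The one that rose was Prdm1, a repressor needed for germ cells, at 0.97 (limma adjusted p = 0.0267), and its mean lay under the receptor background. It was not called with the trend (limma trend adjusted p = 0.0673), on the deposited log2 values (limma adjusted p = 0.118) or without control replicate 2 (0.71, limma adjusted p = 0.149). Esrra, a paralog of Esrrb, stood at −0.55, Gbx1 at −0.62 and Tfcp2 at −0.41, none of which passed (limma adjusted p from 0.164 to 0.311). Others stood on the opposite side from their member. Nr5a1 was at −0.44, against 0.33 for Nr5a2, and Grhl2 and Ubp1 at 0.69 and 0.18, against −0.58 for Tfcp2l1. Of 10 genes of proteins that partner the members, 0 rose and 0 fell, with a median of 0.27, Ncoa1 at 0.73 and Nr0b1, a partner of Esrrb and Nr5a2 and itself a naive-state gene, at 0.58 (limma adjusted p = 0.101 and 0.191).

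The inputs that feed these factors were compared from lists of pathway genes. Of all genes, 2.62% rose and 0.105% fell, and with the trend 1.64% and 1.43%. Of 14 measured genes of the LIF, Jak and Stat3 pathway, 0 rose and 0 fell, with a median of 0.19 (−0.05 without control replicate 2). Jak2 stood at 0.76 and Lif at 0.66 (limma adjusted p = 0.0873 and 0.139), both under the receptor background by their means, and Stat3 at −0.38 (limma adjusted p = 0.347). Of 11 genes of the GSK3, beta-catenin and Tcf pathway, 1 rose, Lef1, at 1.51 (limma adjusted p = 9.39e-05), and 0 fell, with a median of 0.09 (−0.16 without control replicate 2). Both control arrays of Lef1, at 6.26 and 6.24, lay under the receptor background, and its mean was 0.01 above it. Of 15 genes of the FGF, MEK and ERK pathway, 2 rose and 0 fell, with a median of 0.30 (0.09 without control replicate 2). They were the receptor gene Fgfr2 (1.22, limma adjusted p = 0.00343) and Sos1, the gene of a Ras exchange factor (0.90, limma adjusted p = 0.0401). Fgfr2 lay under the receptor background on all 4 arrays, and the mean of Sos1 was 0.03 above it. Without control replicate 2 neither was called, at 0.86 for Fgfr2 (limma adjusted p = 0.0744) and 0.40 for Sos1 (0.358), and with the trend Fgfr2 alone was called (limma trend adjusted p = 0.0212, against 0.0710 for Sos1).

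Other genes of the naive state had a higher median than the members, whose median of −0.20 lay near the −0.12 of all genes. Of 13 such other genes measured, 0 rose and 0 fell, where 2.62% and 0.105% of all genes did. The median of the 13 was 0.33 (0.21 without control replicate 2), and 10 had positive values, beside 42.6% of all genes. Pecam1 and Sox15 were highest at 0.69 and 0.58 (limma adjusted p = 0.122 and 0.190). With the trend Tex19.1 fell (−0.54, limma trend adjusted p = 0.00918), where 1.43% of all genes fell and 1.64% rose. Of 10 core pluripotency genes, 0 rose and 0 fell, with a median of −0.03. Sox2 read 9.90 and 9.68 in depleted cells against 9.36 and 9.04 in control cells, and Nanog 10.97 and 11.05 against 11.39 and 11.46. Rif1, the gene of a factor of replication timing, stood at 0.59 (limma adjusted p = 0.180). With the trend Sox2 (0.59, limma trend adjusted p = 0.0175) rose, and Nanog (−0.42, 0.000102) and Sall4 (−0.48, 0.00878) fell. Of 20 formative and primed epiblast genes, 10 had negative values, and the median was 0.09. Beside 2.62% and 0.105% of all genes, 4 of the 20 rose and 0 fell. They were Lef1, Lefty1 (1.17) and Lefty2 (1.13), which encode antagonists of Nodal, and Car4 (0.94), which encodes a carbonic anhydrase, at limma adjusted p from 9.39e-05 to 0.0306, while Lefty2 and Car4 stood at 0.70 and 0.62 without control replicate 2 (limma adjusted p = 0.162 and 0.207). The mean of Car4 lay under the receptor background. With the trend 3 of the 20 rose, without Car4 (limma trend adjusted p = 0.0754), and Pou3f1, a POU factor of the formative state, fell (−0.40, limma trend adjusted p = 0.00698). The differences between these lists and the members were not tested.

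**Figure D5:**
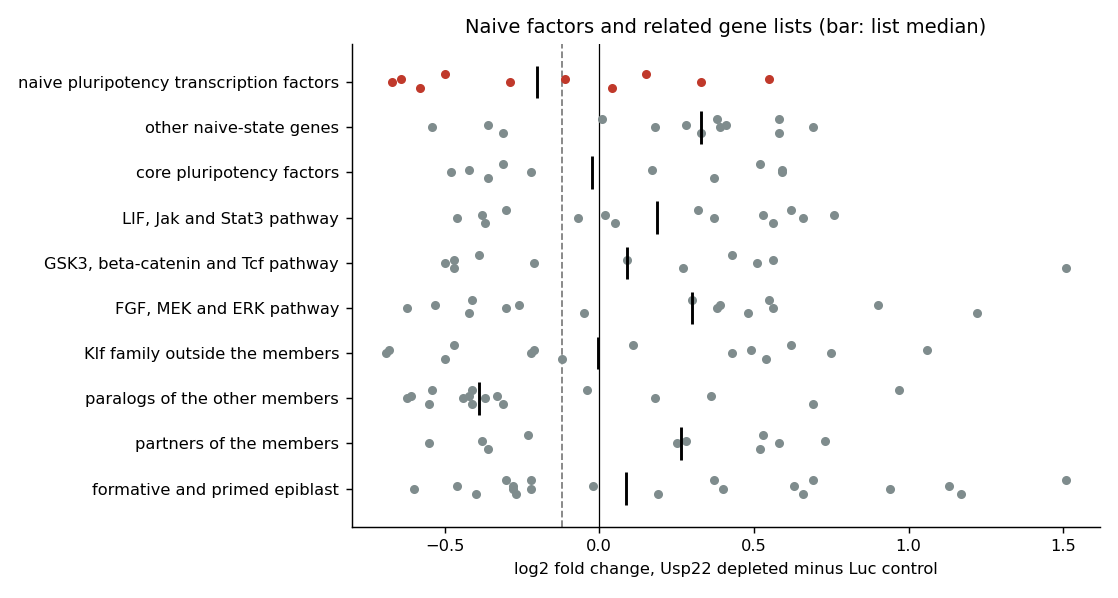
Log2 fold changes (Usp22 depleted minus Luc control) of the 10 factors (red) and of the genes of related lists (grey), each point a gene and each bar a list median; the dashed line is the median of all genes, −0.12. The factors spread from −0.67 to 0.55 around a median of −0.20, and the other naive-state genes have a median of 0.33.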

How the data were processed

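The deposited table held linear intensities of 28856 probe sets from 1-colour Affymetrix arrays; per the labels' protocols, RNA was extracted with Trizol and a column, and cDNA was labelled with biotin. How these values were summarised and normalized is not given in the sources used here. The lowest intensity was 16.0, array medians ran from 110 to 128, and 0 pairs of arrays were identical. The log2 of each value was taken, and the 4 arrays were quantile-normalized. GEO's platform annotation, which can be old, gave 1 symbol to 21789 probe sets, several to 1621 and none to 5446; 21698 matched RefSeq (GRCm38.p6) by gene ID. The brightest probe set was kept for each of 19938 genes. The test was limma's (version 3.58.1, R 4.3.3; lmFit, eBayes, 2 groups, two-sided, Benjamini-Hochberg adjustment over all genes), fitted to all genes with 2 residual and infinite prior degrees of freedom. The 95% intervals come from that fit. The fitting function was tested on simulated data. The number of arrays limits the precision. The replicate numbers were tried as a block: deviations of same-numbered arrays from their group means correlated at 0.105 across genes. The labels do not pair the arrays.

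The members, lists and rules were chosen with earlier results of these data known. All 10 members are named, with the called genes of each list (up to 4, by lowest p), or its 2 lowest p where none was called. Uncalled genes of the marker lists are given as sums only, except Tcstv3, Eif1a and Zfp352. Genes called with the trend alone, and Stat3, Esrra, Gbx1, Tfcp2, Nr5a1, Grhl2, Ubp1, Tcstv3, Eif1a and Zfp352, were named after their values were seen. The scanner files were not used here.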

Additional observations from a re-analysis of the deposited data

How the results depend on the processing

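The 9 members without overlap kept their direction under every scaling, filter, variance model and left-out array tried, which for left-out arrays follows from the lack of overlap. Prdm14 changed sign, with a log2 fold change of 0.05 with arrays centred on their medians and values from −0.32 to 0.10 without 1 array, positive only without control replicate 1 (the same with the trend). Leaving out 1 array moved the members' median between −0.28 and −0.16, and Usp22 between −1.15 and −1.09, with its call lost without depleted replicate 1 (limma adjusted p = 0.830) or depleted replicate 2 (0.360). In such fits the lone array of a group is assumed to vary like the other group. They gave between 0 and 4 members called lower with a single variance, and with the trend between 1 and 4 lower and between 0 and 2 higher. From 0 members lower and 0 higher (0.105% and 2.62% of all genes), the calls moved to 3 and 1 with an intensity trend (1.43% and 1.64%). They were 3 and 1 with trend and robust settings (1.7% and 1.91%), and 1 and 0 above the receptor background (1.53% and 6.91% of those genes). With the trend they were 1 and 1 on deposited log2 values (0.166% and 0.572%) and 0 and 1 on median-centred arrays (0.0652% and 3.86%). Robust settings alone, leaving out the dimmest 25% of genes, and averaging probe sets gave 0 and 0. With the replicate number as a block, which could be a shared number only, 0 members were called and Tbx3 stood at −0.67 (limma adjusted p = 0.0915). In the fit over all genes, with quantile-normalized values, a single variance and no block, differences under 0.86 on the log2 scale were not called. Gbx2 lies at the background of the array.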
